A study of Danio rerio with 12 samples.

Results

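The enzymes that build pyrimidine nucleotides and deoxynucleotides were followed in neuroblastoma cells of 2 transgenic zebrafish models, one driven by MYCN and one by MYC. Their 10 genes (cad, dhodh, umps, ctps1a, ctps1b, tyms, dhfr, rrm1, rrm2 and dut) were taken by symbol from a table of 14581 genes, and all 10 were present. Tumours were broken up, the EGFP-positive cells were sorted, and their RNA was depleted of ribosomal RNA and sequenced. There were 4 libraries from MYCN fish and 8 from MYC fish, with no untreated or tumour-free group, and every library came from EGFP-positive neuroblasts. The promoter that drives each transgene, the age of the fish, and whether each library is 1 fish or several are not stated in the labels. The p-values therefore measure only how much these samples vary, which may be technical.

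Cells make pyrimidines by a chain that assembles the ring and joins it to a ribose phosphate to give UMP. UTP made from UMP is then aminated to CTP, and ribonucleotide reductase removes an oxygen from the ribose of diphosphates to give the DNA precursors. A separate step methylates dUMP to dTMP with a folate cofactor, and the enzymes of the deoxynucleotide arm are known to be made mostly in cells about to copy their DNA. MYC proteins are known to raise several genes of the chain in mammalian cells, cad among them.

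The values are FPKM (fragments scaled by transcript length and library depth), so levels can be set side by side between genes, but only roughly. They also depend on the annotation and the handling of shared reads, which are not given. Tests were run by limma on log2(FPKM + 1) over the 9606 genes that reached 1 FPKM in 4 or more libraries. All 10 enzymes passed that filter, and none was listed at 0 in any library. "Rose" and "fell" mean higher and lower in MYC with an adjusted p under 0.05, errors are SE for log2 fold changes and SD for FPKM, and intervals are 95% intervals of the log2 fold change.

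The sorted cells carried noradrenergic markers in every library: dbh, which makes noradrenaline, ranged from 917 to 3237 FPKM and th, which starts catecholamine synthesis, from 281 to 859 FPKM. The summed level of 9 such markers was 5493 to 7384 FPKM in MYCN and 3412 to 5028 FPKM in MYC. Of the 9, 3 fell, beside 7.63% of all genes tested. Those 3 were isl1 (-2.99, lowest library 0.730 FPKM), phox2bb (-2.21, lowest library 2.00 FPKM) and hand2 (-1.04). Log2 fold changes were negative for 7 of the 9 and positive for ddc (0.73) and slc18a2 (0.65), which were not called. The sum is made up mostly of dbh, hand2 and th, so it says little about the less abundant markers. Of 9 tested macrophage and leukocyte markers 8 rose, beside 5.77% of all genes tested. The summed level of 10 such genes was 24.8 to 117 FPKM in MYCN and 148 to 556 FPKM in MYC. None of those 10 genes was at 0 in any library. Of 6 erythroid markers none was called (none at an unadjusted p under 0.05, limma), with sums of 315 to 473 and 36.0 to 1008 FPKM. Genes at 0 and the third principal component set MYC 1 to 4 apart from MYC 5 to 8: 11 genes were above 0 only in MYC 1 to 4 and 6 were at 0 only in MYC 5 to 8. A further 12 genes were at 0 only in the MYCN libraries. Between the models, genotype and any other difference of the libraries cannot be told apart. MYCN 3, MYC 3 and MYC 7 had the lowest scores on the second component, which held 25.4% of the variance. In bulk samples, fewer cells of a type and less RNA per cell cannot be told apart.

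Between the models the ring-building arm had no called difference, and on the deoxynucleotide arm 1 gene was called. That gene was tyms, which fell. In all, 1 of the 10 enzymes fell, 9 did not pass and none rose. An unadjusted p under 0.05 (limma) was found for 3 of the 10, and for 2746 of the 9606 genes tested. Over all genes tested 13.4% were called, 7.63% lower and 5.77% higher in MYC, so the count of enzymes called is near the background. With libraries rescaled to a common sum, 905 genes were lower and 367 higher in place of 733 and 554, and the median of all genes moved from -0.05 to -0.22. In no enzyme were the libraries of the 2 models fully separated, against 9.33% of all genes. The median log2 fold change of the 10 was -0.09, beside -0.05 over all genes tested. With the replicate number as a block (replicates 1 to 4 of each model, 8 libraries) 2261 genes were called, which is 23.5% of those tested. Without the block, all 12 libraries gave 1287 and the same 8 libraries gave 912. The enzyme calls with the block were those of the fit on all 12 libraries. On the same 8 libraries without the block tyms was not called (adjusted p = 0.242, against 0.0287 with it). The block rests on correlations between same-numbered libraries in these same data, not on the labels, so calls gained with it add no support.

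**Figure D1:**
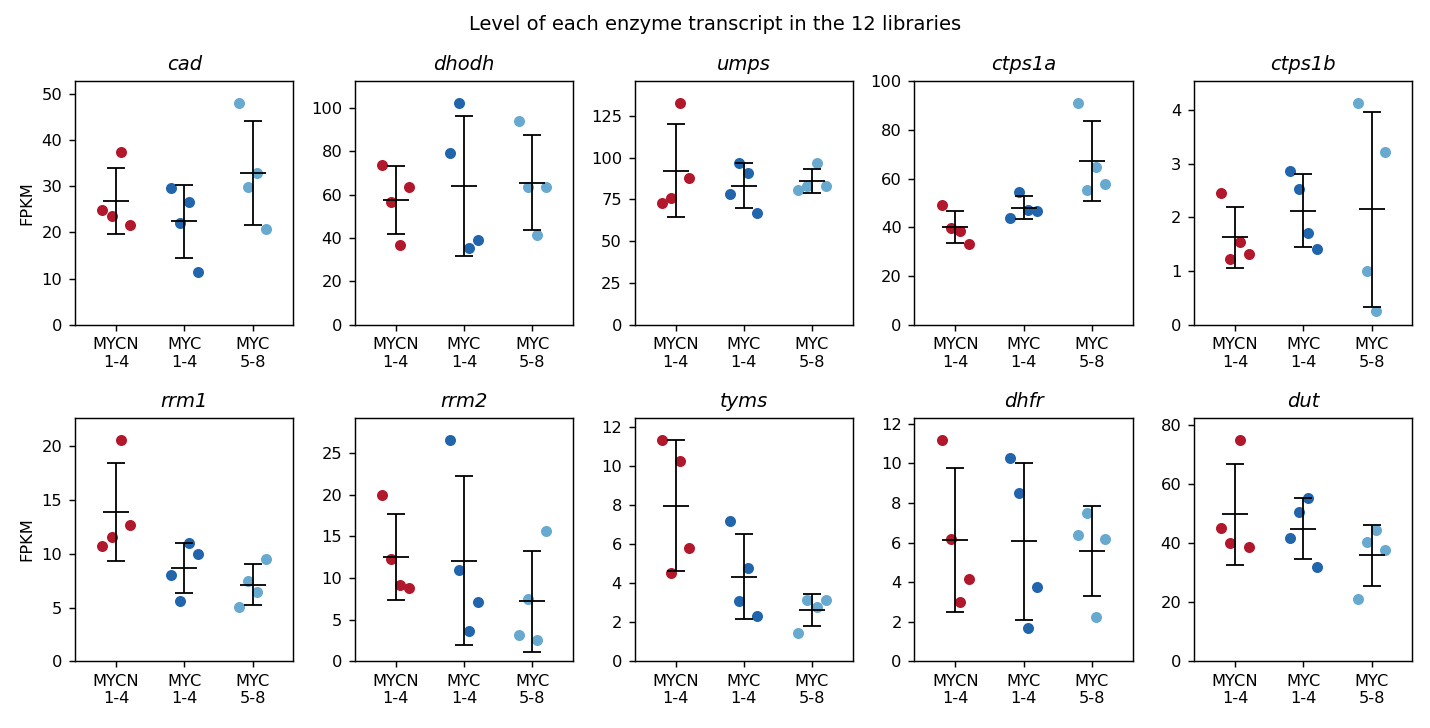
FPKM of each of the 10 enzymes (vertical axes, from 0) in MYCN 1 to 4, MYC 1 to 4 and MYC 5 to 8; points are libraries in order of their number, and bars are mean ± SD. The tyms points of MYC lie mostly below those of MYCN (means 3.49 and 7.98 FPKM), while umps stays between 66.7 and 133 FPKM in all 12 libraries.

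In level, an upper and a lower group of enzymes, split by their means, did not mix within any library. Over the 12 libraries umps averaged 87.2 ± 17.0 FPKM, dhodh 62.4 ± 22.2, ctps1a 51.7 ± 15.2, dut 43.6 ± 13.1 and cad 27.4 ± 9.30. Below them came rrm2 at 10.6 ± 7.18 FPKM, rrm1 at 9.91 ± 4.15, dhfr at 5.92 ± 3.07, tyms at 4.98 ± 3.15 and ctps1b at 1.97 ± 1.08. In all 12 libraries cad was above rrm2, the next in order. Other neighbours changed places: umps was above dhodh in 8 of 12 libraries, dhodh above ctps1a in 8, ctps1a above dut in 8, rrm2 above rrm1 in 6, rrm1 above dhfr in 8 and dhfr above tyms in 7. The steps from dut to cad and from tyms to ctps1b held in 11 and 10 libraries. The ring-building enzymes, ctps1a and dut thus had higher mean levels than rrm1, rrm2, tyms and dhfr.

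The first enzyme of the chain is cad, a fusion of the activities that make carbamoyl phosphate, join it to aspartate and close the ring. It stood at 24.8, 23.6, 37.4 and 21.7 FPKM in MYCN 1 to 4. In MYC its lowest value was 11.5, its median 28.1 and its highest 48.0 FPKM. The MYC libraries spread to both sides of the MYCN ones, with MYC 4 lowest and MYC 5 highest of all 12. The log2 fold change was -0.02 ± 0.30 (interval -0.66 to 0.61, adjusted p = 0.974). With MYC 1 to 4 alone it was -0.30, with MYC 5 to 8 alone 0.25, and neither was called (adjusted p = 0.632 and 0.641).

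The mitochondrial enzyme dhodh oxidises dihydroorotate to orotate, a step tied to the respiratory chain. Its MYCN values were 73.7, 56.4, 36.6 and 63.5 FPKM. Its MYC values ran from 35.4 through a median of 63.6 to 102 FPKM. The MYC range, over 8 libraries, was wider than the MYCN one, over 4, and a range over more libraries tends to be wider. Of the MYC libraries 3 lay above and 1 below all MYCN libraries. The log2 fold change was 0.11 ± 0.31 (interval -0.54 to 0.77, adjusted p = 0.848). For umps, which adds the ribose phosphate and removes a carboxyl group to give UMP, MYCN values were 72.9, 75.6, 133 and 87.7 FPKM. MYC values had a lowest of 66.7, a median of 83.1 and a highest of 97.1 FPKM. Only MYC 4 lay below the MYCN libraries and none lay above them. This was the steadiest enzyme: the spread around the means of the 2 models, 0.26 on the log2 scale, was at the 10.6 percentile of all genes tested, and the interval of the fold change was -0.49 to 0.31 (-0.09 ± 0.19, adjusted p = 0.802).

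CTP synthase aminates UTP with nitrogen from glutamine, and the zebrafish table holds 2 of its genes. The main one, ctps1a, stood at 49.1, 39.7, 38.3 and 33.1 FPKM in MYCN. In MYC its lowest value was 43.8, its median 54.9 and its highest 91.0 FPKM. All 8 MYC libraries were above the lowest 3 MYCN libraries, and 5 of them were above MYCN 1 as well. The log2 fold change was 0.49 ± 0.20 (interval 0.06 to 0.93), which had an unadjusted p of 0.0295 and did not pass (adjusted p = 0.126). Taking only MYC 1 to 4 gave 0.27 (adjusted p = 0.477), and taking only MYC 5 to 8 gave 0.72 (adjusted p = 0.0775). The other gene, ctps1b, had MYCN values of 2.45, 1.22, 1.54 and 1.31 FPKM and lay between 0.264 and 4.13 FPKM (median 2.12) in MYC. MYC libraries lay on both sides of the MYCN ones, 2 below and 4 above, and the fold change did not pass (0.16 ± 0.33, interval -0.55 to 0.87, adjusted p = 0.801). Within each library ctps1a was higher than ctps1b, by 15.3 to 245 times. The ratio of 245 was in MYC 7, where ctps1b was at 0.264 FPKM, and the median ratio was 25.1 in MYCN and 24.8 in MYC.

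Ribonucleotide reductase is built from a large subunit, rrm1, which holds the active and regulatory sites, and a small subunit, rrm2, which supplies a radical and is known to be destroyed at the end of each cell cycle. For rrm1 the MYCN values were 10.7, 11.6, 20.6 and 12.7 FPKM. In MYC its lowest value was 5.09, its median 7.79 and its highest 11.02 FPKM. Of the 8 MYC libraries 7 lay below the lowest MYCN library, and MYC 3 lay between MYCN 1 and MYCN 2. The log2 fold change was -0.73 ± 0.24 (interval -1.24 to -0.22), and the adjusted p of 0.0584 missed the threshold. With MYC 1 to 4 alone the value was -0.61 (adjusted p = 0.228), and with MYC 5 to 8 alone -0.85 (0.0911). Leaving out MYC 3 gave a call (-0.80, adjusted p = 0.0393).

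The small subunit rrm2 had the widest spread of the 10 enzymes on the log2(FPKM + 1) scale, which compresses low genes such as ctps1b (a range of 15.7 times in MYC). Its MYCN values were 19.9, 12.3, 9.19 and 8.75 FPKM. Its MYC values ran from 2.55 through a median of 7.31 to 26.6 FPKM, a range of 10.4 times. MYC 1 was the highest of all libraries while 5 MYC libraries lay below every MYCN one. The spread around the means of the 2 models, 0.91 on the log2 scale, was at the 93.0 percentile of all genes tested. The log2 fold change was -0.61 ± 0.49 and did not pass (interval -1.66 to 0.44, adjusted p = 0.453), so at this spread a fall by a factor of 0.316 and a rise by 1.35 times (of FPKM + 1) both lie within the interval. The subunit rrm2b, which in mammals is induced by p53 and serves cells outside S phase, averaged 20.7 ± 3.77 FPKM in the MYCN libraries and 28.1 ± 6.09 FPKM in the MYC ones (0.41 ± 0.20, adjusted p = 0.185). It was above rrm2 in 11 of 12 libraries. The median ratio of rrm2b to rrm2 was 2.02 in MYCN (0.885 to 2.72) and 4.67 in MYC (1.01 to 8.91), a description that was not tested.

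The enzyme tyms methylates dUMP to dTMP and is the target of fluorouracil. It stood at 11.3, 4.50, 10.3 and 5.80 FPKM in MYCN. In MYC its lowest value was 1.45, its median 3.11 and its highest 7.21 FPKM. Of the 8 MYC libraries 6 lay below every MYCN library, and MYC 1 and MYC 3 lay within the MYCN range. It fell by 1.01 ± 0.31 on the log2 scale (interval -1.68 to -0.34, adjusted p = 0.0469), from a mean of 7.98 ± 3.34 to 3.49 ± 1.77 FPKM. The call held without MYCN 2, MYC 1 or MYC 3 and ended without any of the other 9 libraries (adjusted p = 0.0657 to 0.152). Set by set, the difference was -0.76 for MYC 1 to 4 (not called, adjusted p = 0.242) and -1.26 for MYC 5 to 8 (adjusted p = 0.0426). With the replicate block on MYCN 1 to 4 and MYC 1 to 4, tyms was called (adjusted p = 0.0287). That block rests on these same data, so the call with it adds no support. Leaving out MYCN 3, MYC 3 and MYC 7 gave -0.92 (not called, adjusted p = 0.123). The macrophage and leukocyte sums were higher in MYC than in MYCN, at 282 to 556 FPKM in MYC 1 to 4 and 148 to 222 FPKM in MYC 5 to 8. Their part in the tyms difference was not tested.

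**Figure D2:**
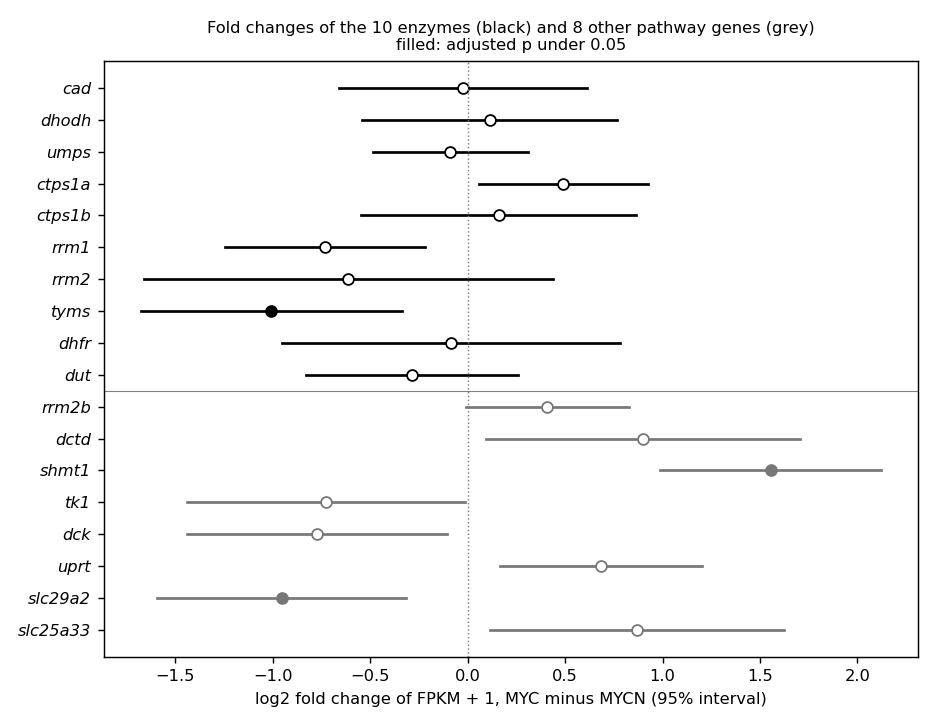
Log2 fold change of FPKM + 1, MYC minus MYCN, with its 95% interval, for the 10 enzymes (black) and, in grey, rrm2b and the 7 other pathway genes with an unadjusted p under 0.05; filled points have an adjusted p under 0.05. Of the enzymes, tyms (-1.01) is filled, the intervals of rrm1 (-1.24 to -0.22) and ctps1a (0.06 to 0.93) exclude 0 without passing, and shmt1 (1.56) lies farthest to the right.

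**Figure D3:**
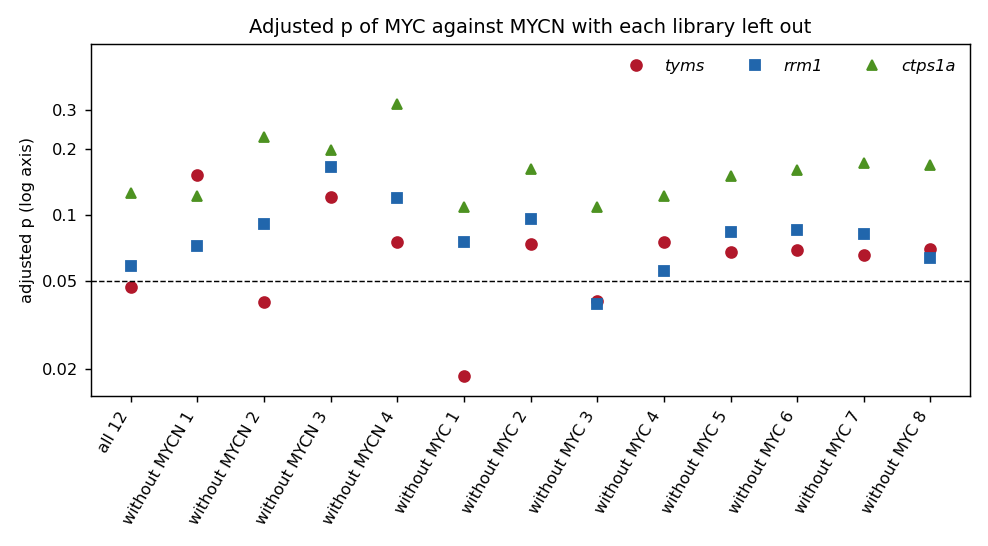
Adjusted p (log axis, dashed line at 0.05) of tyms, rrm1 and ctps1a with all 12 libraries and with each library left out in turn. The tyms points are under the line in 3 of the 12 cases, the rrm1 points in 1 and the ctps1a points in none.

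The folate enzyme dhfr regenerates the tetrahydrofolate that tyms uses up, and methotrexate blocks it. Its MYCN values were 11.2, 6.17, 3.0 and 4.15 FPKM. Its MYC values ran from 1.70 through a median of 6.29 to 10.3 FPKM. The groups overlapped almost fully, with 2 MYC libraries below and none above the MYCN range (-0.09 ± 0.40, interval -0.95 to 0.78, adjusted p = 0.918). The enzyme dut splits dUTP to dUMP, which keeps uracil out of DNA and feeds tyms. It stood at 45.0, 40.2, 75.0 and 38.8 FPKM in MYCN, and in MYC had a lowest of 21.1, a median of 41.2 and a highest of 55.3 FPKM. Here 3 MYC libraries lay below the MYCN range and none above it (-0.29 ± 0.25, interval -0.83 to 0.26, adjusted p = 0.503). The ratio of dut to tyms within a library was 3.97 to 8.94 in MYCN and 5.80 to 16.4 in MYC. Of the MYC libraries MYC 1, at 5.80, lay inside the MYCN range. The ratio was not tested.

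**Figure D4:**
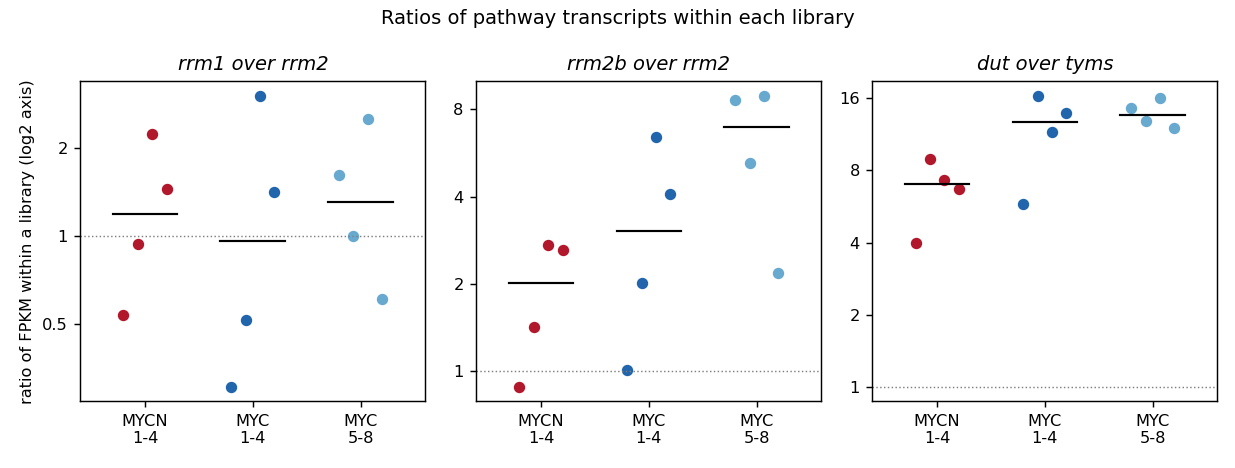
FPKM ratio within each library (log2 axes) of rrm1 to rrm2, rrm2b to rrm2 and dut to tyms; points are libraries in order of their number, lines are medians, and the dotted line marks equal levels. The ratio of rrm1 to rrm2 runs from 0.304 to 3.04 with both models around 1, and that of dut to tyms has medians of 6.99 in MYCN and 13.4 in MYC.

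Within the MYC model no enzyme was called between MYC 5 to 8 and MYC 1 to 4, where 0.552% of all genes were called by limma. None of the 10 enzymes had an unadjusted p under 0.05 there, which 878 of the 9606 genes tested had. The widest differences were -0.64 ± 0.56 for rrm2 (means 7.22 ± 6.05 and 12.1 ± 10.1 FPKM), 0.55 ± 0.32 for cad (32.9 ± 11.4 and 22.4 ± 7.95 FPKM), -0.50 ± 0.35 for tyms (2.63 ± 0.806 and 4.34 ± 2.17 FPKM) and 0.45 ± 0.21 for ctps1a (67.1 ± 16.4 and 48.0 ± 4.64 FPKM). Adjusted p ran from 0.547 to 0.998 over the 10 enzymes. The labels do not give these MYC sets, which were taken from the pattern of genes at 0 in these same data. Calls between them therefore add no support for the split.

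The enzymes also varied between libraries of one model. In MYCN 3, MYC 3 and MYC 7, the libraries that stood apart on the second component, dhfr was 0.70, 1.18 and 0.92 below the mean of its model on the log2 scale. In the same libraries dhodh was below its model's mean by 0.60, 0.75 and 0.54. The subunit rrm2 was below it by 0.34, 0.87 and 1.25. In contrast dut was above its model's mean by 0.63, 0.49 and 0.18 in these libraries, and umps by 0.56, 0.11 and 0.20. Deviations of like size were also seen outside these 3 libraries. For dhfr they were above the mean (0.90 in MYCN 1, 0.87 in MYC 1), and its lowest there was -0.36 (MYC 4). Examples in the same direction are rrm2 (-1.03 in MYC 5, -0.40 in MYCN 4), dhodh (-0.61 in MYC 4), and dut (0.37) and umps (0.20) in MYC 2. The 10 enzymes are among the 9606 genes from which the component was computed, so this is a description. Without the 3 libraries no enzyme was called, the fold change of rrm1 was -0.58 (adjusted p = 0.125), and that of rrm2 was -0.37 (0.662).

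**Figure D5:**
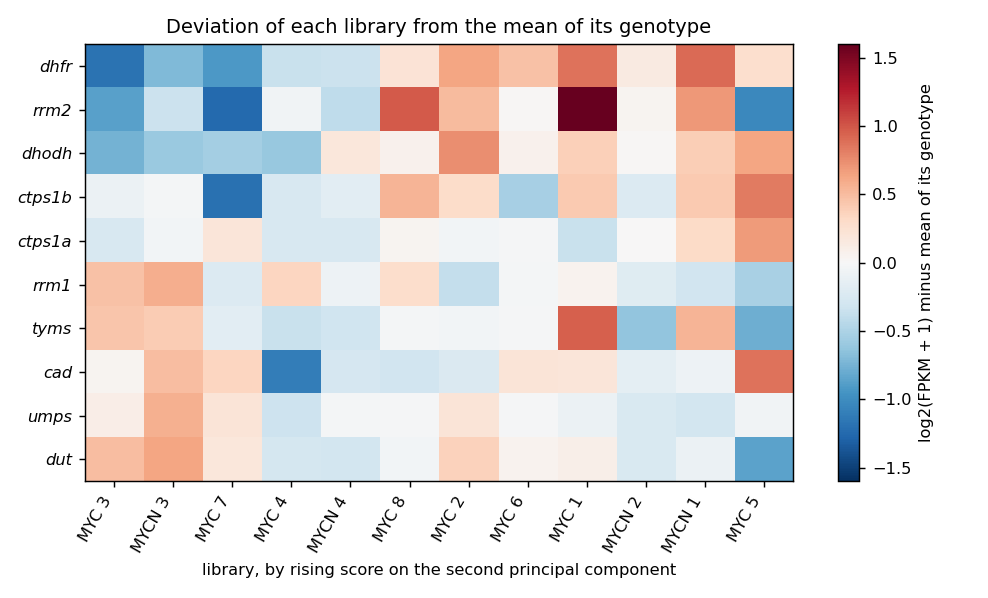
Log2(FPKM + 1) of each enzyme minus the mean of its model (colour), with libraries ordered from the lowest to the highest score on the second principal component. At the left edge MYC 3, MYCN 3 and MYC 7 are below the mean for dhfr, rrm2 and dhodh and above it for dut, umps and cad.

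The genes whose levels followed cad and rrm2 most closely over the 12 libraries were ranked by Pearson's r of log2(FPKM + 1), as a description of libraries that share depth and composition. For cad these were nap1l1, a histone chaperone (r = 0.925), rad23b, a DNA repair factor (r = 0.894), and hnrnpa1b, an RNA-binding protein (r = 0.870). For rrm2 they were cdca5, which holds sister chromatids together (r = 0.959), cks1b, a small partner of cyclin-dependent kinases (r = 0.959), and zgc:110540 (r = 0.957), which RefSeq lists with the synonym dck2. None of these 6 was called between the models (adjusted p = 0.214 to 0.954).

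Around the 10 enzymes, 56 further pathway genes were listed, of which 44 were measured and 37 tested. Of the 37, 1 rose, 1 fell and 35 did not pass, with a median log2 fold change of -0.02. The share called was 5.41%, beside 13.4% of all genes tested. The one that rose was shmt1, the cytosolic enzyme that loads a carbon from serine onto folate for use by tyms and other enzymes. Its MYCN values were 11.4, 14.1, 15.7 and 9.05 FPKM, its MYC mean was 40.1 ± 13.3 FPKM (lowest 22.3), and the groups did not overlap. Its log2 fold change was 1.56 ± 0.26 (adjusted p = 0.00186), and it was called with each of the 12 libraries left out. The one that fell was slc29a2, an equilibrative nucleoside transporter, from 4.37 ± 0.934 to 1.95 ± 1.30 FPKM (-0.95 ± 0.30, adjusted p = 0.0483). Its call ended without any library other than MYC 1 or MYC 8 (adjusted p = 0.0638 to 0.138). The call also ended against MYC 1 to 4 (0.145) and MYC 5 to 8 (0.0578) taken singly. Leaving out MYCN 3, MYC 3 and MYC 7 ended it too (0.143). With the replicate block, MYCN 1 to 4 and MYC 1 to 4 gave a call (-0.79, adjusted p = 0.0354). That block rests on these same data, so the call with it adds no support.

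No salvage, kinase or breakdown gene was called, while 13.4% of all genes tested were. Of 9 tested salvage genes, which recycle nucleosides and bases, none was called. Among them 3 had an unadjusted p under 0.05 (limma), as did 2746 of the 9606 genes tested. Of those 3, tk1 (-0.73, adjusted p = 0.167) and dck (-0.77, adjusted p = 0.118) were lower in MYC and uprt was higher. The most abundant was uprt, named for uracil phosphoribosyltransferase, with means of 101 ± 15.9 FPKM for MYCN and 169.5 ± 59.2 FPKM for MYC (0.68 ± 0.24, adjusted p = 0.0790). Of 9 tested nucleotide kinases none was called (none at an unadjusted p under 0.05), and the nucleoside diphosphate kinase nme2b.1, which has near-identical relatives that could share its reads, averaged 3368 ± 1199 and 2966 ± 1447 FPKM. Of 9 breakdown genes none was called (none at an unadjusted p under 0.05). There the most abundant was itpa, which clears inosine triphosphate, at 107 ± 25.4 and 90.8 ± 24.7 FPKM. Of 7 genes of ribose phosphate supply and nucleoside transport, slc29a2 was the 1 called, and the most abundant, prps1a, which makes the ribose phosphate donor used by umps, stood at 167 ± 29.3 and 172 ± 58.3 FPKM (adjusted p = 0.994). Higher in MYC without a call were slc25a33 of the same list (0.87, adjusted p = 0.120) and dctd of dTMP synthesis (0.90, adjusted p = 0.131). Both had an unadjusted p under 0.05 (limma).

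For reference, S phase genes were read in the same fit. Of 15 tested, 6 fell (40%), 9 did not pass and none rose, while 7.63% of all genes tested fell. The median log2 fold change was -0.56, beside -0.05 over all genes tested. Log2 fold changes were negative for 13 of the 15 and positive for gmnn (0.74) and fen1 (0.15), which were not called. The summed level of the 18 measured was 365 to 592 FPKM in MYCN and 155 to 294 FPKM in MYC. That sum is made up mostly of mcm7, mcm4, pcna and mcm6, so it says little about the less abundant genes. Those that fell were the replicative helicase subunits mcm3 (-1.17), mcm4 (-2.11), mcm5 (-1.24), mcm6 (-0.86) and mcm7 (-1.40), and orc6 of the origin recognition complex (-1.48). The sliding clamp pcna stood at 68.2 ± 24.9 and 45.3 ± 11.3 FPKM and did not pass (-0.55 ± 0.25, adjusted p = 0.157). The call of mcm7 ended without MYCN 2, MYCN 3 or MYCN 4 (adjusted p = 0.0598 to 0.0741), and those of mcm6 and mcm7 ended against MYC 5 to 8 alone (0.0639 and 0.101). That of mcm7 also ended without MYCN 3, MYC 3 and MYC 7 (0.0613). Whether the lower tyms level follows these genes was not tested.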

How the data were processed

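RNA of sorted EGFP-positive cells was sequenced in 12 libraries (4 MYCN, 8 MYC). The authors deposited 1 table of FPKM, 1 column per library, and named cutadapt, TopHat2 2.0.11 and Cufflinks 2.2.1, per the submitters' processing notes. The genome build, annotation and handling of reads shared between near-identical genes are not given in the sources used here. FPKM carries no fragment count, so the depth is unknown and the error of each value is the spread of its group.

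Groups came from the sample titles. Values were taken as log2(FPKM + 1), which understates changes of low genes. Genes that reached 1 FPKM in 4 or more libraries were fitted with limma 3.58.1 in R 4.3.3 (eBayes with a mean-variance trend, two-sided, Benjamini-Hochberg over the 9606 genes, threshold 0.05). The script was tested on simulated data. A model of MYCN, MYC 1 to 4 and MYC 5 to 8 gave the difference within MYC. The split of MYC rests on genes at 0 in these same data, not on the labels. The main fit held no replicate block, so its fold changes, intervals and p-values are unpaired. Replicate numbers 1 to 4 were treated as pairing only in the replicate block alternative (MYCN 1 to 4 and MYC 1 to 4). The ground was that deviations from the group means correlated across genes at 0.249, 0.379, 0.534 and 0.148 between same-numbered libraries. For numbers 1 to 3, not 4, this was the best match. MYCN 1 to 4 also correlated with MYC 5 to 8 in the same order, at 0.140, 0.265, 0.456 and 0.063, so the pairing rests on the data and not on the labels. What a shared number means is not stated in the labels. Alternatives covered the pseudocount, filter, scaling, variance model, replicate block and libraries left out.

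The enzymes and the lists (pathway, S phase, E2F and RB, and noradrenergic, macrophage and leukocyte, and erythroid markers) were chosen with earlier results of these data known. Named were all 10 enzymes, pathway genes that were called, the most abundant gene of each pathway list, and the 3 genes most correlated with cad and with rrm2. The pathway genes tk1, dck, dctd and slc25a33, and S phase, marker and E2F genes named without a call, were chosen after their values were seen.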

Additional observations from a re-analysis of the deposited data

How the results depend on the processing

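The count of enzymes called (1, tyms) was 0 with a pseudocount of 0.1, with no filter, with a filter of 5 FPKM, after median-ratio scaling or quantile normalisation, against MYC 1 to 4 alone, and without MYCN 3, MYC 3 and MYC 7 (chosen after seeing the data). It was 2 with library weights, where rrm1 was added (adjusted p = 0.0445). Leaving out each library in turn gave 0 to 2. The cause was not tested. The fold change of tyms stayed negative in all 25 alternatives, at -1.26 to -0.76, as did that of rrm1, at -0.90 to -0.54. All genes called (1287) came to 1978 with library weights, 2261 with the replicate block (8 libraries), 850 against MYC 5 to 8 alone, and 707 to 1346 with a library left out, the fewest without MYCN 4; the counts were 813 and 815 without MYCN 1 and MYCN 2. Between the MYC sets 53 genes were called, 31 with a filter of 5 FPKM and 21 to 44 with a library left out (33, 32, 21 and 21 without MYC 1, MYC 4, MYC 6 and MYC 8). Rescaling to a common sum moved the share of calls that were higher in MYC from 43.0% to 28.9%. Enzymes without a call turned sign as follows. The log2 fold change of cad was 0.016 after median-ratio scaling, 0.041 after quantile normalisation, 0.017 with library weights, 0.25 against MYC 5 to 8 and 0.080 without the 3 libraries named above. That of dhodh was -0.071 after rescaling to a common sum, that of umps 0.046 without the 3 libraries, and that of dhfr 0.0052 with library weights and 0.031 without the 3 libraries. With single libraries left out, cad ran from -0.15 to 0.14, dhodh from -0.085 to 0.25, umps from -0.19 to 0.10 and dhfr from -0.32 to 0.22. With the filter of 5 FPKM ctps1b was not tested. With the replicate block (8 libraries) each enzyme's call was that of the fit on all 12 libraries. Against the same 8 libraries without the block, tyms gained its call (adjusted p = 0.242 without and 0.0287 with the block). The block rests on correlations in these same data, so this gain adds no support.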

Other observations

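The E2F and RB family, which controls S phase genes, was read as values only. Its members e2f1, e2f2, e2f8 and rbl2 were not matched to any listed gene. Of 10 measured genes 8 were tested and none was called by limma (2 at an unadjusted p under 0.05), with 3 positive and 5 negative log2 fold changes. Over all 9606 genes tested 13.4% were called, and 2746 had an unadjusted p under 0.05 (limma). The activator e2f3, listed in the table under another name and matched by a RefSeq synonym, averaged 24.1 ± 10.4 FPKM in the MYCN libraries and 12.2 ± 4.91 FPKM in the MYC ones (-0.91 ± 0.34, adjusted p = 0.0902). The other gene with an unadjusted p under 0.05 (limma) was e2f6, a repressor, also matched by a RefSeq synonym. It was higher in MYC, at 48.8 ± 7.30 and 67.4 ± 16.2 FPKM (0.43 ± 0.20, adjusted p = 0.170). The pocket protein rbl1 stood at 7.74 ± 1.30 and 5.64 ± 1.103 FPKM (-0.41 ± 0.20, adjusted p = 0.193), and the dimer partner tfdp1a at 67.3 ± 12.6 and 51.6 ± 14.6 FPKM (adjusted p = 0.261).

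The helicase gene mcm2 and uhrf1, a factor that keeps DNA methylation through replication, were listed at or near 0 in all 12 libraries, while mcm3 to mcm7 were not. Of these 2 genes it can be said only how they are listed.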
